A study of Mus musculus with 10 samples.

Results

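The proteasome genes of mouse hippocampal cultures were compared after 6 h of endoplasmic reticulum (ER) stress. Members were the protein-coding genes whose GENCODE M21 symbol is Psma, Psmb, Psmc, Psmd, Psme, Psmf or Psmg followed by a number. The rule found 50 genes among 48709 identifiers, and 47 of them were among the 15660 genes with enough counts to be tested. Primary hippocampal neurons were studied at 10 days in vitro, and the labels name neither strain nor genotype. Cultures had either tunicamycin at 2 ug/mL for 6 h (6 libraries) or its solvent DMSO for the same time (4 libraries). Tunicamycin stops cells from attaching N-linked sugars to new proteins, which then misfold in the ER. Polyadenylated RNA of whole cultures was sequenced to between 2.11e+07 and 2.92e+07 counts per library.

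The proteasome is the protease that breaks down proteins tagged with ubiquitin, among them misfolded ER proteins that have been pulled back into the cytosol. Its 20S core is a barrel of outer alpha rings, which gate the entrance, and inner beta rings, which hold the cutting sites. The 19S regulatory particle caps the core: its base holds the ATPases that unfold and thread substrates, and its lid removes ubiquitin. Under interferon, and constitutively in immune cells, the beta subunits Psmb8, Psmb9 and Psmb10 replace their constitutive partners Psmb5, Psmb6 and Psmb7, which makes the immunoproteasome. Other caps open the core without ATP, and dedicated chaperones assemble both particles.

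Treatment was visible in the ER chaperone Hspa5, which rose from 582 to 674 CPM (counts per 1e6 counts) with DMSO to 2966 to 3343 CPM (log2 fold change 2.38), and in the stress factor Ddit3 (log2 2.93). The cultures were not of neurons alone. Summed pan-neuronal markers reached 7074 to 7643 CPM with DMSO and 5939 to 6332 CPM with tunicamycin, and 9 of 11 fell. All 10 astrocyte markers fell, their sum going from 3034 to 3490 CPM down to 2091 to 2348 CPM. Of 10 proliferation markers 9 fell (130 to 161 against 82.8 to 96.4 CPM). Among 4 tested endothelial markers 1 rose, with Cldn5 under 0.1 CPM and sums of 35.9 to 74.6 against 52.6 to 78.5 CPM. Nearly all of that sum was Kdr (means 50.6 and 58.3 CPM, not called), while Pecam1, Cdh5, Tek and Flt1 had means of 0.0669 to 0.69 CPM with DMSO. Over all genes tested 32.5% fell and 31.8% rose. These are bulk values, in which fewer cells of a type and less RNA per cell cannot be told apart, and the part of these markers in the proteasome values below was not tested.

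The promoters of 4 members introduce the genes on which the results turn, with letters that are recognised by factors known for proteasome or stress genes shown in capitals. The windows run from 250 bases before to 50 after the RefSeq start site (GRCm38.p6). Psma2 (chr13:14612992-14613291, plus strand) stands for the alpha ring, the class in which every tested gene fell. Psmb5 (chr14:54617946-54618245, minus strand) and Psmb6 (chr11:70525107-70525406, plus strand) encode catalytic subunits and hold a core of the antioxidant response element, which the factor Nfe2l1 binds when the proteasome is inhibited. Neither gene was called lower or higher. Psme1 (chr14:55578244-55578543, plus strand) had the largest fall of all members, and none of the motifs searched is in its window.

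Psma2: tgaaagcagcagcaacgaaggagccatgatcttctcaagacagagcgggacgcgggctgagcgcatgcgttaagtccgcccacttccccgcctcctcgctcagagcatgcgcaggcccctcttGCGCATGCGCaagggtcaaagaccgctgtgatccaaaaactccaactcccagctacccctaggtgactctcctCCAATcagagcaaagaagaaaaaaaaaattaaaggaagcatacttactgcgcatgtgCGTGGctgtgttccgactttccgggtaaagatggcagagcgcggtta
Psmb5: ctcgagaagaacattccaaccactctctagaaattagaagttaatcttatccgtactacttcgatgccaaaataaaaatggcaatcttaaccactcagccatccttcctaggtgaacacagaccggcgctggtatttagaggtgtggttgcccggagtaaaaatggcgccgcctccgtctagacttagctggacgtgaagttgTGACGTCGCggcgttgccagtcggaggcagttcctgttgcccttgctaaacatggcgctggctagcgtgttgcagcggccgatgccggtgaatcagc
Psmb6: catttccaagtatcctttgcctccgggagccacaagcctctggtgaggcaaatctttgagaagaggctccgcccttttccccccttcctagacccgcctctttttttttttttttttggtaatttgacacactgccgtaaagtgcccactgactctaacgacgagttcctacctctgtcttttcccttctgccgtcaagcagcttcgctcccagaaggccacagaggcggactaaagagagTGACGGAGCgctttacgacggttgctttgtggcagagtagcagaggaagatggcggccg
Psme1: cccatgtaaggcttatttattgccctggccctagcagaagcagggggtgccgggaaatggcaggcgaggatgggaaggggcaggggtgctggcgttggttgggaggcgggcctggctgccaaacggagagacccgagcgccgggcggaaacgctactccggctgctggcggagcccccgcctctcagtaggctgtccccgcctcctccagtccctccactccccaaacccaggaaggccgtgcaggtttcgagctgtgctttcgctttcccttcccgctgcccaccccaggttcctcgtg

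Capitals mark 4 motifs on either strand. They are TGACNNNGC, the antioxidant response element core, CCAAT, the box bound by the Nfya complex, the letters CCACG of the ER stress element, and the palindromic element of nuclear respiratory factor 1, shown in capitals in the Psma2 window. The C/EBP-ATF core TGATGNAA was searched as well. The Psma2 window holds 1 nuclear respiratory factor element, 1 CCAAT box and 1 CCACG on the opposite strand. Windows were found for 42 of 50 members. The antioxidant element core was in 6 of them (14.3%), namely those of Psmb5, Psmb6, Psmc6, Psmd12, Psmd9 and Psme4, against 12.5% of all 27025 RefSeq windows. CCAAT was in 15 (35.7%, against 37.9%), CCACG in 17 (40.5%, against 32.7%) and the C/EBP-ATF core in 1 (2.38%, against 4.06%). The nuclear respiratory factor element was in 7 (16.7%, against 4.78%): Psma2, Psma3, Psma4, Psmc4, Psmc5, Psmd14 and Psmg1. The last motif was added after the Psma2 window had been read. The median GC content was 57.3% in the members' windows and 52.7% in all windows, and its part in these shares was not tested. The Psmd9 window lies 58777 bases from the gene's outermost GENCODE start, and that of Psme1 371 bases.

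Proteasome transcripts moved little, and more members were called lower than higher. With tunicamycin 23 of 47 tested members were lower, 7 were higher and 17 were not called by edgeR's quasi-likelihood test (adjusted p under 0.05). Over all genes tested 32.5% were lower and 31.8% higher, 64.3% in either direction. The median log2 fold change of the members was -0.11, against -0.02 for all genes, and -0.05 over the 35 tested members without near-identical copies or overlaps (15 lower, 6 higher). Changes were small: 11 of 47 members differed by 1.2-fold or more, where 49.8% of all tested genes did, or 43.9% of those at 10 CPM or more. The log2 fold changes ran from -0.52 to 0.33, with an SD between members of 0.18, against 0.50 over all genes and 0.44 over genes at 10 CPM or more. In 15 members every tunicamycin library was below every DMSO library, and in 3 every one was above. Over all genes these shares were 24.5% and 26.6%. Scaling by the upper quartile, which moved the median of all genes to -0.13, gave 35 lower and 1 higher member, with 44.3% lower and 23.2% higher over all genes.

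**Figure D1:**
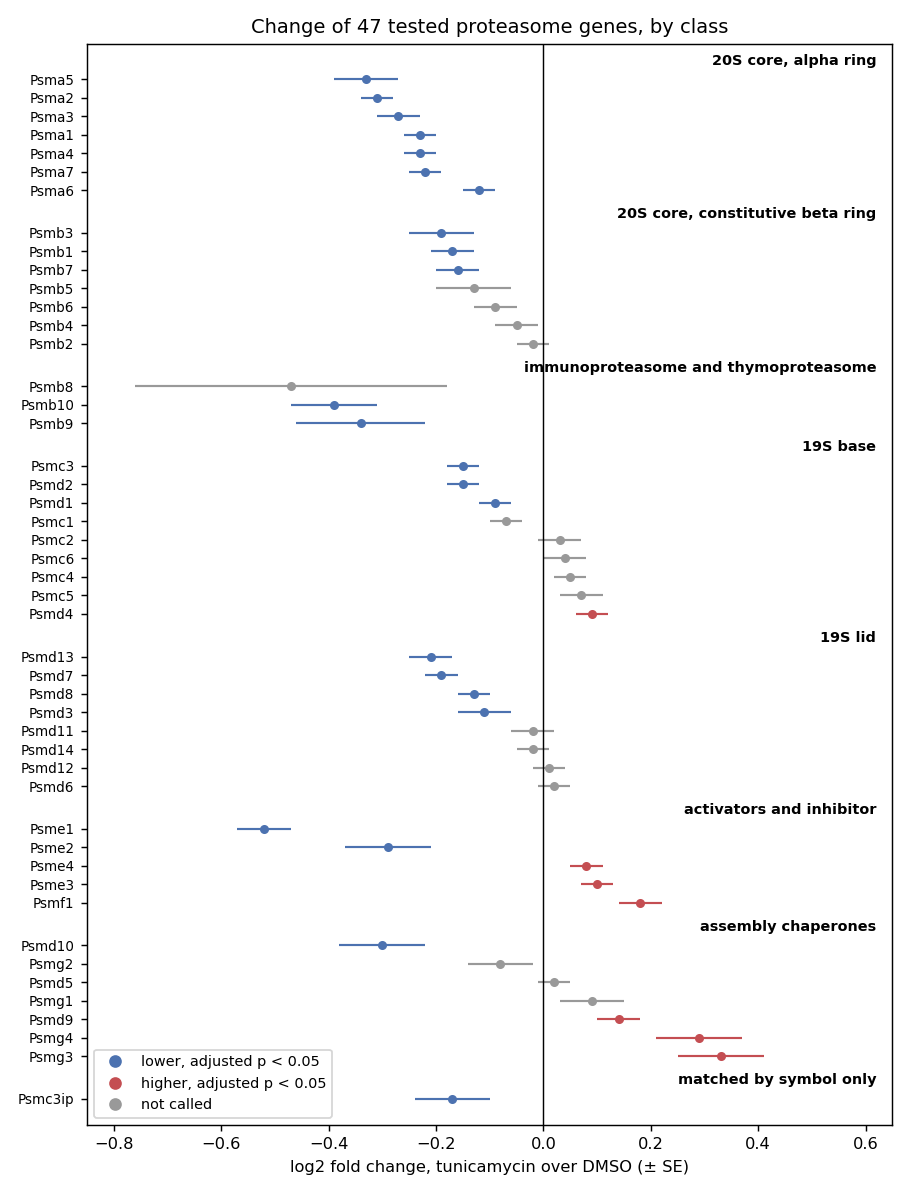
Log2 fold change of tunicamycin over DMSO (points) with its standard error (bars) for the 47 tested members, grouped by class, blue where lower, red where higher and grey where not called. All 7 alpha-ring genes lie between -0.33 and -0.12, the ATPases of the base lie near 0, and Psme1 at -0.52 and Psmg3 at 0.33 are the extremes.

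All 7 tested genes of the alpha ring fell (median log2 fold change -0.23), where 32.5% of all genes tested did. Their summed level was 572 ± 17.1 CPM with DMSO (SD, n = 4) and 490 ± 9.76 CPM with tunicamycin (SD, n = 6). Psma5 had the lowest value, at log2 -0.33 ± 0.06 (SE; edgeR adjusted p = 3.43e-05). Its count is uncertain, since 50% of its 50-base words also occur in transcripts of other genes. Psma2 (ENSMUSG00000015671, chromosome 13, 14613240 to 14674236, GRCm38) has no such near-identical copy. It was at 88.6, 82.7, 88.1 and 89.4 CPM in the DMSO libraries, and ran from 68.4 to 72.7 CPM (median 70.4) with tunicamycin. The groups do not overlap, and the log2 fold change was -0.31 ± 0.03 (edgeR adjusted p = 4.8e-08). Psma3, also with near-identical copies, was at log2 -0.27, Psma1 and Psma4 at -0.23, and Psma7 at -0.22. Psma6 fell least (log2 -0.12, edgeR adjusted p = 0.00322), and its groups met at 104 CPM, where those of the other 6 did not overlap. Psma8, the form of the alpha4 position known from testis, had no count in any library, where 3 counts would be 0.103 to 0.142 CPM.

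The constitutive beta ring had a median log2 fold change of -0.13, and 3 of 7 genes fell (42.9%): Psmb3 (log2 -0.19), Psmb1 (-0.17) and Psmb7 (-0.16). None rose, where 32.5% of all genes tested fell and 31.8% rose. The summed level was 611 ± 25 CPM with DMSO (SD, n = 4) and 569 ± 20.7 CPM with tunicamycin (SD, n = 6). Psmb3 has near-identical copies, and without DMSO replicate 1 it was no longer called (log2 -0.14, edgeR adjusted p = 0.057).

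The cutting subunits of this ring are Psmb6 (caspase-like), Psmb7 (trypsin-like) and Psmb5 (chymotrypsin-like). Psmb7 was at 90.4, 88.3, 91.4 and 91.3 CPM with DMSO and at 77.8 to 89.2 CPM (median 80) with tunicamycin. Only tunicamycin replicate 4, at 89.2 CPM, reached into the DMSO range (edgeR adjusted p = 0.00104), and 11.8% of the exonic bases of Psmb7 overlap Nek6. Psmb6 was at 113, 97.1, 112 and 103 CPM with DMSO and at 90.7 to 103 CPM (median 102) with tunicamycin. The DMSO libraries spread as widely as the groups differed, and the log2 fold change of -0.09 was not called (edgeR adjusted p = 0.0755). Without DMSO replicate 2, the lowest of the controls for Psmb6, the gene was called (log2 -0.14, edgeR adjusted p = 0.0112). Psmb5 was at 20.4, 18.4, 21.4 and 20.9 CPM with DMSO and at 15.5 to 20.8 CPM (median 18.5) with tunicamycin. The groups overlap (log2 -0.13, edgeR adjusted p = 0.126). Of its words 54.1% are shared with copies and 12.1% of its exonic bases overlap Mir686, so that its count is uncertain. Psmb2 (log2 -0.02) and Psmb4 (-0.05), which have no cutting site, were not called. With the trend on GC content and length removed, the values of Psmb2 (0.05), Psmb4 (0.01) and Psmb5 (0.03) were above 0, none called, and the median of the ring was -0.04.

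**Figure D2:**
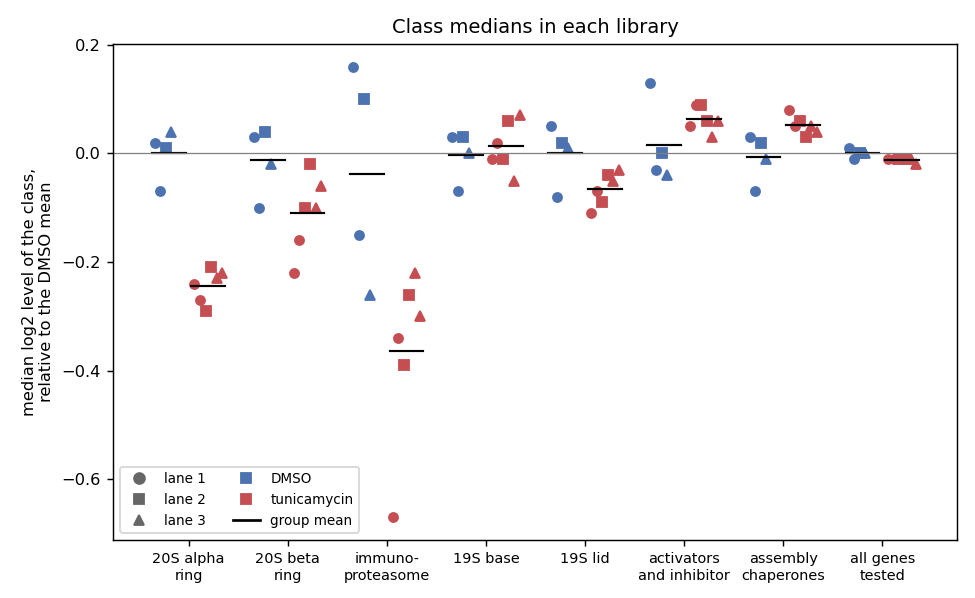
Median log2 level of each class in every library relative to the DMSO mean of each gene, with marker shapes for the 3 sequencing lanes and black lines for group means. Alpha-ring medians are -0.07 to 0.04 with DMSO and -0.29 to -0.21 with tunicamycin, without overlap, while those of the 19S base overlap.

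Of the immunoproteasome genes Psmb10 and Psmb9 fell, where 32.5% of all genes tested did, and the median over the 3 tested was log2 -0.39. The summed level of the class, with Psmb11 included, was 22 ± 2.5 CPM with DMSO (SD, n = 4) and 16.8 ± 1.64 CPM with tunicamycin (SD, n = 6). Psmb10 (ENSMUSG00000031897, chromosome 8, 105935735 to 105938444, GRCm38) made up most of this. It was at 19.5, 15.4, 18.6 and 16.4 CPM with DMSO and at 10.9 to 14.6 CPM (median 13.5) with tunicamycin. No tunicamycin library reached the DMSO range, and the change was log2 -0.39 ± 0.08 (SE; edgeR adjusted p = 0.000159). Psmb9 was at 3.92, 3.33, 4.6 and 3.08 CPM with DMSO and at 2.6 to 3.21 CPM (median 3) with tunicamycin. DMSO replicate 4 lay inside the tunicamycin range. The change was log2 -0.34 ± 0.12 (SE; edgeR adjusted p = 0.0172), and without DMSO replicate 3, the highest library, it was -0.22 (edgeR adjusted p = 0.12). Within lanes it was -0.38, -0.66 and 0.03 in lanes 1, 2 and 3. Psmb8 was at 0.647, 0.554, 0.604 and 0.459 CPM with DMSO and at 0.168 to 0.57 CPM (median 0.439) with tunicamycin. The groups overlap and the log2 fold change of -0.47 ± 0.29 (SE) was not called (edgeR adjusted p = 0.162), at a level close to that of 3 counts in a library. Of its exonic bases 14.7% overlap the gene model Gm20496. Psmb11, the thymus form, was at 0 to 0.345 CPM and was not tested.

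Each immunoproteasome subunit takes the place of 1 constitutive partner, so their ratio was compared per kilobase of exon. The log2 ratio of Psmb10 to Psmb7 was -1.21, -1.51, -1.29 and -1.47 in the DMSO libraries and between -1.83 and -1.53 in the tunicamycin libraries, without overlap. The mean went from -1.37 to -1.61, a difference of -0.24 (two-sided exact permutation test over libraries, p = 0.00476, the smallest that 210 splits can give; adjusted over 3 pairs 0.0143). Without DMSO replicate 1 the difference was -0.18 (exact permutation adjusted p = 0.0714). Within lanes 1, 2 and 3 it was -0.32, -0.29 and -0.08. Psmb9 to Psmb6 went from a mean of -5.81 to -6.05, a difference of -0.24 (exact permutation p = 0.0238, adjusted 0.0357), with -0.27, -0.51 and 0.04 in the 3 lanes. It passed no longer without DMSO replicate 1 (-0.24), 2 (-0.25) or 3 (-0.16) or tunicamycin replicate 1 (-0.23), 2 (-0.23) or 3 (-0.21), with exact permutation adjusted p-values of 0.0595 to 0.107. Psmb8 to Psmb5 went from -7.03 to -7.45, and its difference of -0.42 did not pass (exact permutation p = 0.19, adjusted 0.19). On a linear scale Psmb10 stood at 0.387 of Psmb7 with DMSO and at 0.329 with tunicamycin, while Psmb9 stood at 0.0178 and 0.0151 of Psmb6.

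**Figure D3:**
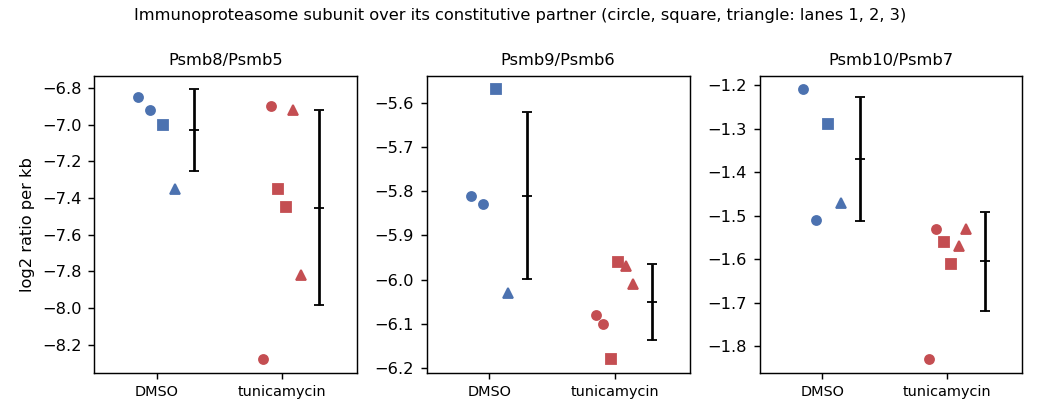
Log2 ratio per kilobase of each immunoproteasome subunit to its constitutive partner in every library, with marker shapes for lanes and bars for mean ± SD; the axes do not start at 0. For Psmb10 over Psmb7 all 6 tunicamycin libraries (-1.83 to -1.53) lie below the 4 DMSO libraries (-1.51 to -1.21), while the groups overlap for Psmb8 over Psmb5.

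Interferon and major histocompatibility complex (MHC) class I genes are known to be induced along with the immunoproteasome. Of 15 tested, 8 fell and 1 rose (median log2 -0.23), where 32.5% of all genes tested fell and 31.8% rose. Tapbp, the peptide-loading chaperone tapasin, was at log2 -0.60 and the peptide-trimming protease Erap1 at -0.39, and each of these overlaps another gene in over 10% of its exonic bases. Other falls do not carry that limit. B2m, with no overlap or shared words, was at -0.35, and Irf1, with means below 5 CPM, at -0.97. Both were named after their values were seen. The gene that rose was Gbp2, an interferon-induced GTPase (log2 1.35), below 5 CPM in both groups and named after its value was seen. Psmb9 and the peptide transporter Tap1 lie head to head on opposite strands of chromosome 17. Their outermost starts are 211 bases apart within an overlap of both genes, and 5.79% of the exonic bases of Psmb9 overlap Tap1. Tap1, also chosen after its values were seen, was at 21.8, 19.1, 17.8 and 18.2 CPM with DMSO and at 14.8 to 18 CPM with tunicamycin. Its log2 fold change was -0.22 (edgeR adjusted p = 0.00888; -0.15 and 0.0557 without DMSO replicate 1), with -0.37, -0.14 and -0.04 in the lanes. Over the whole interferon and MHC list the lane medians were -0.38, -0.25 and -0.03, and over the immunoproteasome genes -0.51, -0.45 and -0.13. Microglia, which express the immunoproteasome, left few transcripts: 7 of 9 tested markers fell, and the sum over all 11 was 17.5 to 22.2 CPM with DMSO and 12.4 to 15.4 CPM with tunicamycin. The part of these markers in the fall of Psmb9 and Psmb10 was not tested.

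The base of the 19S regulatory particle holds the ATPases Psmc1 to Psmc6, the scaffold subunits Psmd1 and Psmd2 and the ubiquitin receptor Psmd4. Of its 9 genes 3 fell (33.3%), 1 rose (11.1%) and the median log2 fold change was 0.03. Over all genes tested 32.5% fell and 31.8% rose. The summed level was 1445 ± 50.4 CPM with DMSO (SD, n = 4) and 1403 ± 27.1 CPM with tunicamycin (SD, n = 6). Among the 6 ATPases Psmc3 alone was called (log2 -0.15, edgeR adjusted p = 0.000791), and its libraries, at 138, 130, 139 and 133 CPM with DMSO and 114 to 126 CPM with tunicamycin, do not overlap. Psmc1 (log2 -0.07), Psmc2 (0.03), Psmc4 (0.05), Psmc5 (0.07) and Psmc6 (0.04) were not called. With the GC and length trend removed, Psmc4 (0.09, edgeR adjusted p = 0.00543) and Psmc5 (0.14, 0.000154) were called higher, while upper-quartile scaling put them at -0.07 and -0.05. With the replicate block and that trend removed Psmc3 lost its call (-0.08, edgeR adjusted p = 0.0609). The median of the base was -0.04 with the trend removed and -0.09 under upper-quartile scaling. Psmc1, which has near-identical copies, was called without DMSO replicate 2 (-0.09, edgeR adjusted p = 0.0295). Psmd2 was at 314, 291, 309 and 304 CPM with DMSO and at 263 to 282 CPM (median 275) with tunicamycin, with no overlap (log2 -0.15, edgeR adjusted p = 0.000268). It too has near-identical copies. Psmd1 was at log2 -0.09 (edgeR adjusted p = 0.0138), and at -0.07 without DMSO replicate 3 (0.0611).

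Psmd4, which binds ubiquitin chains, was the base gene that rose. It was at 122, 119, 122 and 120 CPM with DMSO and at 120 to 135 CPM (median 129) with tunicamycin, where tunicamycin replicate 1 lay among the controls. The change was log2 0.09 ± 0.03 (SE; edgeR adjusted p = 0.0231). It was 0.08 and not called without DMSO replicate 2, tunicamycin replicate 2 or tunicamycin replicate 4, and it was -0.02 under upper-quartile scaling.

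In the lid 4 of 8 genes fell and none rose, against 32.5% and 31.8% of all genes tested. The median was log2 -0.07, with a summed level of 972 ± 33.9 CPM with DMSO (SD, n = 4) against 915 ± 24.9 CPM (SD, n = 6). Psmd13 was at 129, 115, 127 and 121 CPM with DMSO and at 96.2 to 112 CPM (median 108) with tunicamycin (log2 -0.21, edgeR adjusted p = 0.000159). The groups do not overlap, and 10.1% of its exonic bases overlap Sirt3. Psmd7, the partner of the deubiquitinase, was at log2 -0.19 and Psmd8 at -0.13. The fourth, Psmd3, was at -0.11 (edgeR adjusted p = 0.047). It was no longer called when DMSO replicate 1, 3 or 4 or tunicamycin replicate 1, 2, 3 or 6 was left out, with values of -0.12 to -0.07. Psmd14, the deubiquitinase that removes chains from bound substrates (log2 -0.02), Psmd11 (-0.02), Psmd12 (0.01) and Psmd6 (0.02) were not called. With the GC and length trend removed, Psmd11 (-0.10) and Psmd14 (-0.09) were called lower. Over the 20S core, 10 of 14 tested genes were lower and none higher (median -0.18), and over the 19S particle 7 of 17 were lower and 1 higher (median -0.02). The difference between both particles was not tested.

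Activators went in opposite directions. The genes of the interferon-inducible 11S cap, Psme1 and Psme2, fell, and those of the nuclear activators, Psme3 and Psme4, and of the inhibitor Psmf1 rose. Psme1 (ENSMUSG00000022216, chromosome 14, 55578123 to 55581529, GRCm38) was at 33.9, 29.5, 31.1 and 29 CPM with DMSO and at 19.9 to 22.6 CPM (median 22.2) with tunicamycin. Every tunicamycin library was well under the lowest DMSO library, and the log2 fold change of -0.52 ± 0.05 (SE; edgeR adjusted p = 2.86e-08) was the lowest of all members, with -0.57, -0.55 and -0.37 in the lanes. Psme2, whose gene lies 5911 bases from that of Psme1, was at 9.79, 9.09, 8.92 and 7.99 CPM with DMSO and at 6.73 to 7.96 CPM (median 7.33) with tunicamycin. Its groups came close without overlapping (log2 -0.29 ± 0.08, edgeR adjusted p = 0.00222). Of its words 28.3% are shared with Psme2b and a gene model, and Psme2b itself, at 0.0343 to 0.19 CPM, was not tested.

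Psmf1, which encodes the inhibitor PI31, was at 52.9, 44.3, 47.4 and 48.2 CPM with DMSO and at 52.4 to 56.4 CPM (median 55.1) with tunicamycin. DMSO replicate 1 lay inside the tunicamycin range (log2 0.18 ± 0.04, edgeR adjusted p = 0.000879). Psme3 was at 130, 123, 128 and 122 CPM with DMSO and at 130 to 137 CPM (median 134) with tunicamycin, so that the groups nearly met at 130 CPM without overlapping (log2 0.10 ± 0.03, edgeR adjusted p = 0.0103). Psme4 was at 91.9, 97.1, 88.6 and 93.1 CPM with DMSO and at 94.5 to 102 CPM (median 98.1) with tunicamycin, with overlap (log2 0.08 ± 0.03, edgeR adjusted p = 0.0407). These rises are small. Under upper-quartile scaling Psmf1 was at 0.07 and not called (edgeR adjusted p = 0.166), Psme3 was at -0.02 and Psme4 at -0.03. Psme4 was at -0.02 with the GC and length trend removed. Psme4 was not called when DMSO replicate 1, 3 or 4 or tunicamycin replicate 1, 2 or 3 was left out (0.07 to 0.09).

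**Figure D4:**
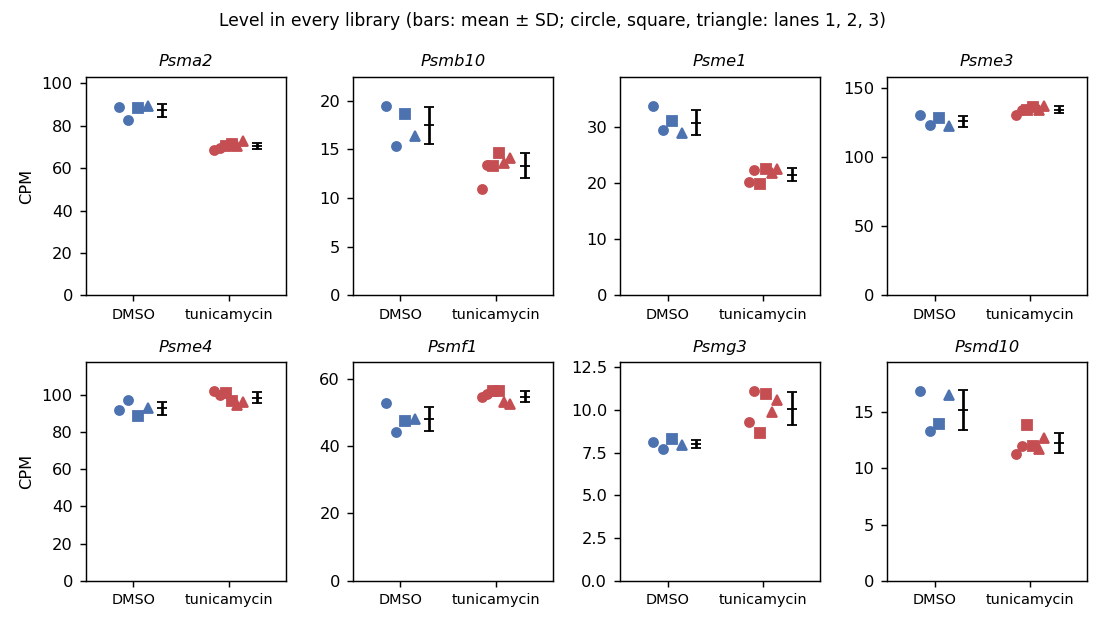
CPM in every library for 8 members, with marker shapes for lanes and bars for mean ± SD; each axis starts at 0. Psma2, Psmb10 and Psme1 are lower in all 6 tunicamycin libraries, Psmg3 is higher in all 6, and the groups of Psme4, Psmf1 and Psmd10 overlap.

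Among the assembly chaperones 3 of 7 (42.9%) rose and 1 fell (median log2 0.09), where 31.8% of all genes tested rose and 32.5% fell. Under upper-quartile scaling the median was -0.03, and the rises of Psmd9 (0.03, edgeR adjusted p = 0.554) and Psmg4 (0.18, 0.0531) were not called. The chaperones Psmg1 to Psmg4 build the alpha ring, and Psmd5, Psmd9 and Psmd10 guide the base. Psmg3 (ENSMUSG00000029551, chromosome 5, 139823592 to 139826885, GRCm38) was at 8.11, 7.69, 8.27 and 7.95 CPM with DMSO and at 8.67 to 11.1 CPM (median 10.2) with tunicamycin. The groups do not overlap, and the log2 fold change of 0.33 ± 0.08 (SE; edgeR adjusted p = 0.000791) was the highest of all members. Psmg4, its partner, was at 7.59, 6.76, 6.65 and 7.49 CPM with DMSO and at 7.38 to 9.35 CPM (median 9) with tunicamycin. Tunicamycin replicate 5 alone lay in the DMSO range (log2 0.29 ± 0.08, edgeR adjusted p = 0.00294). The other alpha-ring pair, Psmg1 (log2 0.09) and Psmg2 (-0.08), was not called, though Psmg1 was with the GC and length trend removed (0.16, edgeR adjusted p = 0.027). Psmd9 was at 34.9, 33.5, 34.7 and 33.7 CPM with DMSO and at 35.5 to 40.1 CPM (median 38.1) with tunicamycin, without overlap (log2 0.14 ± 0.04, edgeR adjusted p = 0.00499), and 25.5% of its exonic bases overlap the model Gm26745. Psmd10, the base chaperone gankyrin, went the other way. It was at 16.9, 13.3, 14 and 16.5 CPM with DMSO and at 11.3 to 13.9 CPM (median 12) with tunicamycin (log2 -0.30 ± 0.08, edgeR adjusted p = 0.00135), with the groups overlapping, and at -0.37, -0.10 and -0.42 in the lanes. Psmd5 was at log2 0.02. Psmc3ip carries a proteasome-like symbol but encodes a partner of recombinases in meiosis. It was at 8.49, 8.65, 8.13 and 8.82 CPM with DMSO and at 6.85 to 8.13 CPM (median 7.77) with tunicamycin, meeting at 8.13 CPM, and 21.2% of its exonic bases overlap Mlx. Its call (log2 -0.17, edgeR adjusted p = 0.0481) was lost without any 1 of the 4 DMSO libraries or of tunicamycin replicates 1 to 4 (-0.18 to -0.14).

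Parts of the proteasome with other symbols were split as well. Of 12 listed, 11 were matched and tested, 4 rose and 3 fell, where 31.8% of all genes tested rose and 32.5% fell. Pomp, a chaperone of beta-ring assembly, was at 110, 100, 108 and 106 CPM with DMSO and at 71.6 to 83.6 CPM with tunicamycin. Its value lay below that of every constitutive core subunit (log2 -0.41 ± 0.04, edgeR adjusted p = 7.22e-09). Sem1, the smallest lid subunit, was at log2 -0.29 (edgeR adjusted p = 1.25e-06), and Usp14, a deubiquitinase of the 19S particle, at -0.12. Of the exonic bases of Usp14, 26% overlap Thoc1. Akirin2, which brings proteasomes into the nucleus, rose by log2 0.37 ± 0.04 (edgeR adjusted p = 3.31e-08), from 68.6 to 77.1 CPM with DMSO to 90.3 to 100 CPM. Ecpas, which tethers proteasomes to other structures, and Fam192a, a partner of Psme3, were both at 0.20. Adrm1, the ubiquitin receptor Rpn13, has near-identical copies and lay at the threshold (log2 0.14, edgeR adjusted p = 0.0546). It was called higher with the GC and length trend removed (0.20, 0.00392), also with the replicate block added (0.20, 0.015), with RLE scaling (0.14, 0.048), with either other filter on low counts (0.14 and 0.16), and without DMSO replicate 1 (0.16) or 3 (0.19) or tunicamycin replicate 2 (0.15).

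Regulators of proteasome transcription were higher in 11 of 12 tested genes (median log2 0.31), against 31.8% of all genes tested. Nfe2l1, the ER-bound factor that raises proteasome genes when the proteasome is inhibited, was at 345, 329, 341 and 337 CPM with DMSO and at 395 to 408 CPM with tunicamycin. The groups do not overlap (log2 0.25 ± 0.03, edgeR adjusted p = 6.51e-08). Ddi2, the protease that activates the Nfe2l1 protein, was at log2 0.52, with 18.3% of its exonic bases overlapping Rsc1a1. Maff, a small Maf protein that pairs with Nfe2l1, was at 1.66, and Nfya, a subunit of the CCAAT-binding factor, at 0.55. Foxo4, a factor linked to lid gene expression, fell (log2 -0.97).

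Ubiquitin and shuttle genes were split evenly, with 9 of 21 higher, 9 lower and a median of log2 0.00. Over all genes tested 31.8% were higher and 32.5% lower. The largest rises were of Zfand2b, a proteasome-binding protein at the ER (0.85), the ubiquitin-activating enzyme Uba6 (0.47) and the p97 cofactor Ufd1 (0.30). Among those that fell was the conjugating enzyme Ube2r2 (-0.33).

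With DMSO, the 31 constitutive subunits of the core and the 19S particle ranged from 8.79 to 88.5 CPM per kilobase of exon, a 10.1-fold range with a median of 38.8. The 6 subunits with near-identical copies hold 4 of the 5 lowest places (Psmb3, Psma3, Psma5 and Psmb5) and also places 4 and 5 from the top (Psmc1 and Psmd2). Without these 6 the range was 11.5 to 88.5 CPM per kilobase. Psma6 (88.5 ± 3.59, SD, n = 4) and Psmc5 (84.5 ± 3.85) were the highest and overlapped each other. This order depends on the length used: per kilobase of the longest transcript Psmb4 (129) and Psmb6 (110) stood above Psma6 (105), Psmc5 stayed at 84.5 and Psma1 went from 42.1 to 104. In 23 of 30 neighbouring pairs in this order the DMSO libraries overlapped. By either length the alpha-ring genes, all of which fell, included both Psma6 and the low Psma2 (23.7 by exons, 29.9 by longest transcript) and Psma5 (14.9 and 15.9).

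**Figure D5:**
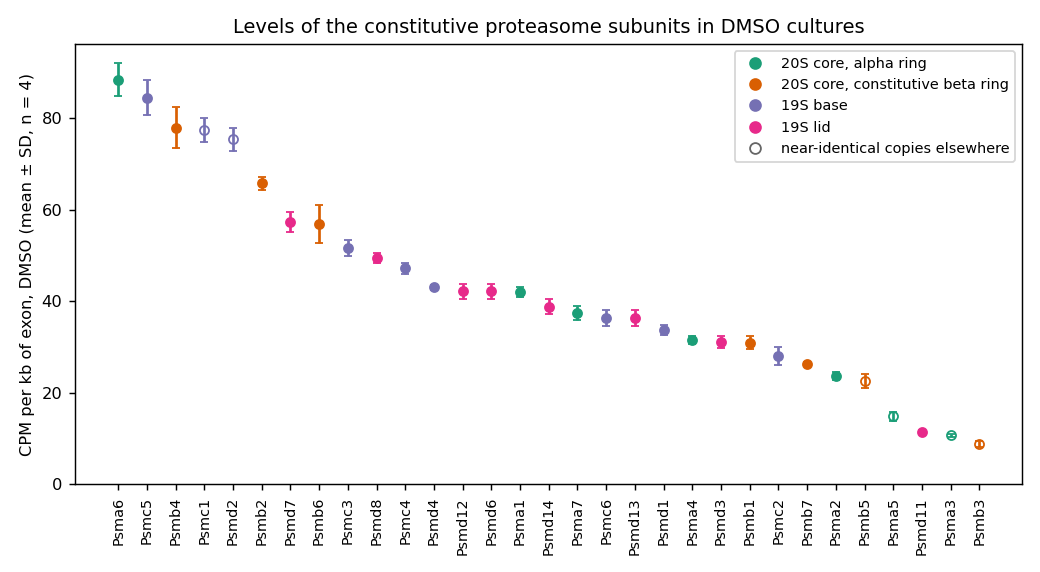
CPM per kilobase of exon in DMSO cultures (mean ± SD, n = 4) of the 31 constitutive subunits in order of level, coloured by class, with open symbols for genes with near-identical copies. By this length levels run from 88.5 for Psma6 to 8.79 for Psmb3, and by the longest transcript Psmb4 would be first.

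Libraries differed in ways the treatment does not explain. In DMSO replicate 2 the medians of the alpha ring, beta ring, base, lid and chaperones were 0.07 to 0.10 below the DMSO mean on the log2 scale, while the median of all genes was 0.01 below it. In tunicamycin replicate 1 the beta-ring median was -0.22, lowest of the tunicamycin libraries. Without DMSO replicate 2 there were 24 lower and 6 higher members, and without tunicamycin replicate 1 there were 21 and 6. Each sequencing lane, fitted alone, gave 16, 18 and 13 lower and 1, 4 and 5 higher members in lanes 1, 2 and 3, against 23.5%, 23% and 21.4% lower and 25.3%, 25% and 25.3% higher over all genes. The alpha-ring median was -0.21, -0.26 and -0.23 in the lanes, the beta-ring median -0.15, -0.12 and -0.13, the lid median -0.09, -0.10 and -0.03, and the chaperone median 0.07, 0.05 and 0.15. Of 30 called members 29 had the same sign in all 3 lanes, Psmb9 being the exception. The lanes are parts of the same libraries that gave the calls, so this is no independent check.

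The authors' deposited tables list 28 of the 47 tested members, 22 as lower and 6 as higher. Of all 15660 genes tested here they list 30.4% as lower and 29.7% as higher. All 28 have the direction found here, but the authors' values come from these same libraries and are no independent check. In the authors' deposited table Psme1 is at log2 -0.52 and Psma2 at -0.31. Psme4 and Psmc3ip, called here at adjusted p-values just under 0.05, are the called members outside those lists.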

How the data were processed

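RNA was measured in 10 libraries of primary mouse hippocampal neurons, 4 with DMSO and 6 with tunicamycin, grouped by the agent in the labels. Libraries were made from polyadenylated RNA with a kit that does not mark strand, per the labels' protocols. Per the submitters' processing notes, the tools were STAR 2.5.2b, Subread 1.5.1 with featureCounts, FastQC 0.11.5 and DESeq2, with mm10 as the build; roles are not stated there. The authors deposited whole-number counts per gene, without normalization, with library sums of 2.11e+07 to 2.92e+07. Their deposited lists of higher and lower genes hold a log2 fold change and an adjusted p-value (highest 0.0499) and a normalized signal. Dividing the counts of a library by a single factor gave that signal for 100% of values, within a relative tolerance of 1e-4.

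Symbols and positions came from GENCODE M21 (GRCm38), which matched 48349 of 48709 identifiers. The other 360 held 0.0462% of the counts. All genes were fitted together with edgeR 4.0.16 (R 4.3.3; TMM scaling, filterByExpr, robust quasi-likelihood F test), adjusted by Benjamini-Hochberg over 15660 genes and called under 0.05. The SE is the log2 fold change divided by the square root of F. CPM are counts per 1e6 of the TMM-scaled library total. Per-kilobase levels use the union of exons, and a prior count of 0.5 was added for ratios. A near-identical copy means that 50-base words shared with other genes exceed overlapping exonic bases by 10 percentage points or more, and an overlap is named from 10% of exonic bases. Lanes are those in the names of the deposited files.

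On simulated counts over 15660 genes, with 50 of them changed at each fold, the same test recovered 58% of genes simulated with a 1.2-fold change. At 1.5-fold it recovered 90%, and there were 8 false calls. In the data 64.3% of genes were called, so these shares do not give the recovery in the data. The labels do not say that libraries came from separate cultures, and the spread that p-values rest on may be technical. No library repeated another (chi-square per degree of freedom 2.07 to 9.64). The biological coefficient of variation was 0.049.

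The members and lists were chosen with earlier results of these data known. The naming rule asks for library values of the extreme called members of each class (at least 5 CPM in 1 group) and of the catalytic subunits. It also asks for those of the called activators, inhibitor and chaperones, Psmd4 and Psmc3ip. From the lists it names up to 3 rises and 3 falls, with Nfe2l1, Pomp, Adrm1 and Sem1. Results of some items that the rule names are not reported here. Values of Psmc3 and Tap1 by library were added after they were seen. Psma2 is given by library though the rule does not name it, while Psma5 and Psmb3, which it names, are not. Paaf1 was not matched. Promoter windows are from RefSeq, and the last 30 bases of 38 of 42 windows were found in GENCODE transcripts. Alternatives were DESeq2 1.42.0, other scalings and filters, a lane term, GC and length offsets, a replicate term and leaving out each library.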

Additional observations from a re-analysis of the deposited data

Results flagged for a closer look

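Among 94 groups of member values (CPM, 47 genes in both treatments), 6 held a library whose gap to the nearest other library was a larger part of the range than Dixon's 95% limit allows. Chance alone gives about 1 in 20. The lowest value lay apart in tunicamycin replicate 1 for Psmb4 (132 CPM, others 149 to 153), Psmb6 (90.7, others 99.2 to 103), Psmb10 (10.9, others 13.3 to 14.6) and Psmd3 (123, others 142 to 151). Psmb7 was apart on the high side in tunicamycin replicate 4 (89.2 CPM, others 77.8 to 81.9). Psmc5 was low in DMSO replicate 2 (110 CPM, others 120 to 121). Without tunicamycin replicate 1, the log2 fold change of Psmb10 was -0.34 (edgeR adjusted p = 0.000135), and that of Psmd3 was -0.07 (0.0643).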

How the results depend on the processing

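Of 30 called members, 17 kept their call and direction under all 19 alternatives: Psma1 to Psma7, Psmb1, Psmb7, Psmb10, Psmd2, Psmd7, Psmd8, Psmd10, Psmd13 and Psme1, all lower, and Psmg3, higher. The cause of the changes below was not tested. Upper-quartile scaling gave 1 higher and 35 lower members, medians of -0.22 for all members, -0.35 for the alpha ring, -0.24 for the beta ring, -0.09 for the base, -0.18 for the lid, -0.03 for activators and -0.03 for chaperones. It turned the sign of Psmc2 (-0.09), Psmc4 (-0.07), Psmc5 (-0.05), Psmc6 (-0.07), Psmd12 (-0.10), Psmd4 (-0.02), Psmd5 (-0.10), Psmd6 (-0.09), Psme3 (-0.02), Psme4 (-0.03) and Psmg1 (-0.03). With the GC and length trend removed the medians were -0.28 for the alpha ring, -0.04 for the beta ring, -0.04 for the base, -0.02 for activators and 0.12 for chaperones, and signs turned for Psmb2 (0.05), Psmb4 (0.01), Psmb5 (0.03), Psmc2 (-0.05), Psmd5 (-0.06), Psmd6 (-0.00) and Psme4 (-0.02). The replicate block together with that correction gave medians of -0.28 (alpha ring), -0.05 (beta ring), -0.05 (base), -0.11 (lid) and -0.00 (activators), and turned Psmb2 (0.07), Psmb4 (0.00), Psmb5 (0.05), Psmc2 (-0.06), Psmc6 (-0.00), Psmd5 (-0.07), Psmd6 (-0.01) and Psme4 (-0.00). Without a filter on low counts Psmb2 and Psmd14 were at 0.00. The labels state no pairing of same-numbered libraries, and those numbered 1, 2 and 3 also share a sequencing lane. Correlations of the deviations of same-numbered libraries were -0.217 to 0.00852, which cannot show whether a preparation was shared. The replicate block gave 4 higher and 22 lower members, a Psmb9 to Psmb6 difference of -0.27 (exact sign-flip adjusted p = 0.25) and a Psmb10 to Psmb7 difference of -0.26 (0.125), where 4 pairs cannot pass. Leaving out 1 library gave 5 to 7 higher and 19 to 24 lower members, a chaperone median of 0.05 to 0.13, differences of -0.31 to -0.16 for Psmb9 to Psmb6 and -0.28 to -0.18 for Psmb10 to Psmb7, and values on both sides of 0 for Psmc2 (-0.02 to 0.06), Psmd12 (-0.01 to 0.03), Psmd5 (-0.00 to 0.05), Psmd6 (-0.00 to 0.04) and Psmd14 (-0.05 to 0.00). Calls were lost, with the direction kept, for Psmd9 (0.03), Psmf1 (0.07) and Psmg4 (0.18) under upper-quartile scaling, for Psmd1 (-0.10), Psmd4 (0.09), Psme3 (0.09) and Psme4 (0.11) under the replicate block, for Psmc3 (-0.08), Psme2 (-0.20), Psmd3 (-0.08) and Psmc3ip (-0.18) under the replicate block with the GC correction, for Psmd3 (-0.10) and Psmc3ip (-0.16) with DESeq2, and for Psmd1 (-0.07) and Psmc3ip (-0.15) without a filter. Psmd3 and Psmc3ip also lost their calls with the GC correction alone (-0.05 and -0.13) and with RLE scaling (-0.11 and -0.17). Calls were gained with the GC correction by Psmc4 (0.09), Psmc5 (0.14), Psmg1 (0.16), Adrm1 (0.20), Psmd11 (-0.10) and Psmd14 (-0.09), and by Psmc5 (0.14) and Psmd14 (-0.11) when the replicate block was added to it. Upper-quartile scaling added 8 lower members that kept their sign. Psmc2, Psmd12, Psmd5 and Psmd6, whose signs it turned, were called lower under it as well (edgeR adjusted p = 0.0106 to 0.0473). A lane term added Psmb5 (-0.16) and Psmc1 (-0.08). Leaving out DMSO replicate 2 added Psmb6 (-0.14) and Psmc1 (-0.09). Depth limits Psmb8, Psmb11 and Psme2b, which are near or under the level of 3 counts (0.103 to 0.142 CPM) or a few times above it.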
